A study of Mus musculus with 3 samples.

Results

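Cells that fit a gene rule for the prospective midbrain and hindbrain were described in whole wild-type mouse embryos at embryonic day 8. They were chosen by measured values, the UMIs (counted RNA molecules) of 12 genes in each barcode (the tag of 1 captured cell). A barcode entered when it held at least 1 UMI of Sox2, which marks neural progenitors, and at least 1 UMI of En1, Pax2, Egr2 or Gbx2. It also had to hold no UMI of 7 genes of neighbouring classes, namely Six3 and Hesx1 (forebrain), Nkx1-2 (caudal epiblast), T (primitive streak and notochord), Foxa2 (endoderm and floor plate), Meox1 (somites) and Tbx6 (presomitic mesoderm). The rule found 710 of 22168 barcodes that passed quality control, and these are named gated cells here. Replicate 1 held 212 of 6129 (3.46%, exact 95% Clopper-Pearson interval 3.02 to 3.95%), replicate 2 held 252 of 8116 (3.1%, 2.74 to 3.51%) and replicate 3 held 246 of 7923 (3.1%, 2.73 to 3.51%). The mean share was 3.22% ± 0.204 (SD, n = 3), and the intervals, which cover counting error only, overlapped.

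The 3 libraries were single-cell RNA libraries of 1 male embryo each, of mixed C57BL/6 and 129 SvEv background, labelled with 0 to 2 somites (0 to 1 in the collection protocol) and with the extraembryonic tissue dissected off. The embryos were untreated and WT. Neither a second genotype nor a treatment was analysed, so every comparison was made between cells of the same embryos. UMIs were summed per embryo and class, so that an embryo and not a cell was the replicate. A level is given as CPM, counts per 1000000 UMIs of that class in that embryo, and a summed level does not separate more cells with a gene from more RNA per cell. Levels were not divided by gene length and were compared between classes of cells. The leading gene named for a marker list is the one with the most UMIs in it, with no account of length.

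The neural plate of this stage is divided along its length by opposing transcription factors. Otx2 marks the forebrain and midbrain, Gbx2 marks the anterior hindbrain, and the isthmic organizer forms where the pair meet. En1, Pax2 and Pax5 come on around that junction, where Wnt1 and Fgf8 are the known signals of the organizer. Behind it, Egr2 marks rhombomeres 3 and 5, retinoic acid turns on the first Hox genes, and Cdx genes mark the caudal end, while Cyp26 enzymes degrade retinoic acid in the anterior plate.

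The libraries differed in depth and in their other cells. The median barcode held 26705, 14461 and 16242 UMIs in replicates 1, 2 and 3. Gated cells had a median of 25111.5, 14228.5 and 15152 UMIs, against 26841, 14468.5 and 16276 in all other barcodes. Summed erythroid markers stood at 1.81, 1256 and 175 CPM in the other barcodes of replicates 1, 2 and 3, so replicate 1 held almost no erythroid RNA. The pairs of libraries shared 20 (1 and 2), 14 (1 and 3) and 17 (2 and 3) barcode sequences among those that passed quality control. The total number of calls in each comparison is also given with each embryo left out.

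The gate genes contributed unevenly. Since they chose the cells, their shares are a description and no check of a midbrain and hindbrain label, and the cells are called by their gate and not by a region. Gbx2 (GRCm38, chromosome 1, 89927956 to 89931179) carried most of the gate. It had a UMI in 472 of the 710 gated cells (66.5%), in 32.3% of all other barcodes, and in 73.6% of 969 caudal-gate barcodes (Sox2 and Nkx1-2 present, the 6 other excluded genes absent). Pax2 (chromosome 19, 44756045 to 44837871) was detected in 284 gated cells (40%) against 8.78% of all others and 31.4% of 956 forebrain-gate barcodes (Sox2 with Six3 or Hesx1, the 5 other excluded genes absent). As a class not of the neural plate served 1774 endoderm-rich barcodes, which held at least 1% of their UMIs in Ttr, Apoa1 and Apob, and whose medians were 26318, 15590 and 15150 UMIs in replicates 1, 2 and 3. Pax2 was found in 1.63% of them and Gbx2 in 3.38%. En1 (chromosome 1, 120602418 to 120607992) was detected in 67 gated cells (9.44%), in 1.71% of all others, in 4.29% of the forebrain gate, in 1.86% of the caudal gate and in 5.64% of the endoderm-rich barcodes. Egr2 (chromosome 10, 67535475 to 67542188) was found in 32 gated cells (4.51%), always with exactly 1 UMI, against 0.899% of all others.

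Most gated cells rested on a single gene. Gbx2 alone was found in 369 cells (51.97%), Pax2 alone in 170, both of these in 72, En1 with Pax2 in 29, En1 alone in 23 and Egr2 alone in 16. A total of 353 cells had 1 UMI over the 4 genes together. En1 was uneven between embryos, with 12, 40 and 15 positive gated cells and 2.54, 18.3 and 4.48 CPM in replicates 1, 2 and 3. Its level in all other barcodes was also highest in replicate 2, at 0.438, 1.76 and 0.756 CPM in the same order. Gbx2 stood at 47.9, 61.7 and 59.9 CPM in gated cells and at 86.4, 78.2 and 93.2 CPM in the caudal gate. These values chose the cells and were not tested.

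**Figure D1:**
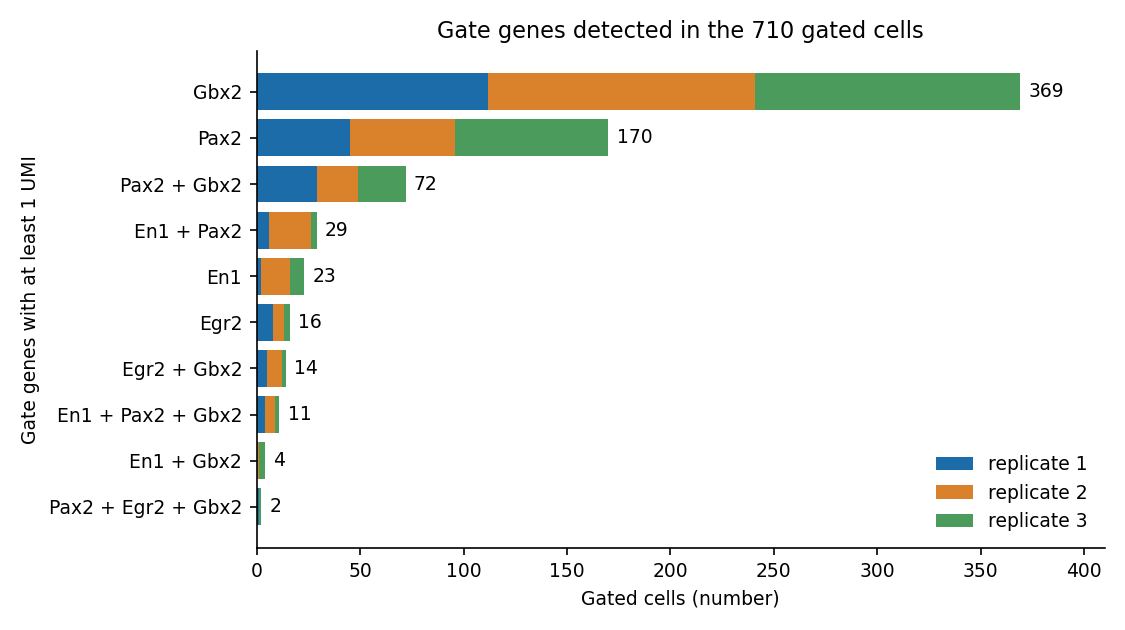
Gated cells (horizontal axis, number of cells) by the set of gate genes with at least 1 UMI (vertical axis), stacked by embryo. Gbx2 alone accounts for 369 of the 710 cells and Pax2 alone for 170.

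Cells on either side of the rule's limits are given as means of 3 embryos, with no test. Gated cells with 1 UMI of the 4 genes had 50.4 CPM of Otx2, and those with 2 or more had 54.4 CPM. The 196 gated cells with 1 UMI of Sox2 stood at 22.1 CPM of Otx2, 59.5 CPM of Pou3f1, a factor of neural progenitors, 101 CPM of Cdx1 and 17.1 CPM of the somite gene Tcf15. Just outside, 253 barcodes that failed only by 1 UMI of Nkx1-2 had 181 CPM of Cdx1, against 64.6 CPM in gated cells with 1 UMI. The 53 that failed only by 1 UMI of Six3 had 87.7 CPM of Otx2. The 667 with Sox2 but none of the 4 genes had 49.8 CPM of Pou3f1 against 86.4 CPM in gated cells with 1 UMI, but 47.05 CPM of Otx2 against 50.4 CPM and 214 CPM of Epcam, an epithelial adhesion gene, against 235 CPM.

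Gated cells were set against all other barcodes to describe what they share beyond the 12 rule genes. Most pan-neural genes tested were higher, and most caudal factors were lower. edgeR called 1153 of 15755 genes (7.32%), 365 higher (2.32%) and 788 lower (5%). With the embryo as a block it called 3642 (23.1%), 1380 higher (8.76%) and 2262 lower (14.4%). The lower counts of these fits include some of 195 tested genes that had no UMI in gated cells. These genes passed the filter on low counts only through the other barcodes, so their direction was fixed. The 7 excluded genes mark cells that remain in the other barcodes, so lower levels of their companion genes are not independent of the rule. Without replicate 1, 2 or 3 the count was 976, 157 or 162 genes, and 86 genes were called in all of these fits.

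Most pan-neural genes tested were higher, beside Sox2, which the rule requires. Of 18 genes, 12 were called higher and 6 were not called, and with the block 12 were higher and 2, Fabp7 and Cdh2, lower. The list had a median log2 fold change of 1.08 against -0.035 over all genes. Sox1, an early transcription factor of the neural plate, stood at 20.97, 24.9 and 13.9 CPM in the gated cells and at 5.51, 3.804 and 4.03 CPM in the others. The embryos did not overlap between classes, as was true of 30.7% of all genes tested. The log2 fold change was 2.18 ± 0.22 (SE, adjusted p = 0.00161 by edgeR), called with any embryo left out. Pou3f1 was at 103, 94.1 and 89.3 CPM against 40.5, 32.4 and 34.6 CPM (1.43 ± 0.098, adjusted p = 0.0004003), again without overlap and called with any embryo left out. Sox21 (1.79 ± 0.26), Sox3 (1.57 ± 0.24), Zic2 (1.23 ± 0.15), Zic5 (0.93 ± 0.19) and the secreted factor Ptn (1.48 ± 0.14) were among the others. Of these, Ptn was called with any embryo left out, Zic5 was lost without replicate 3, Sox21 and Zic2 without replicate 2, and Sox3 without either. Sox1 had a UMI in 28.5% of gated cells, in 20.9% of the forebrain gate, 23.7% of the caudal gate, 7.63% of all others and 0.395% of endoderm-rich barcodes. After thinning every cell to 5000 UMIs the shares of gated cells, the forebrain gate, the caudal gate and all others were 10.4, 6.92, 8.38 and 1.997%.

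**Figure D2:**
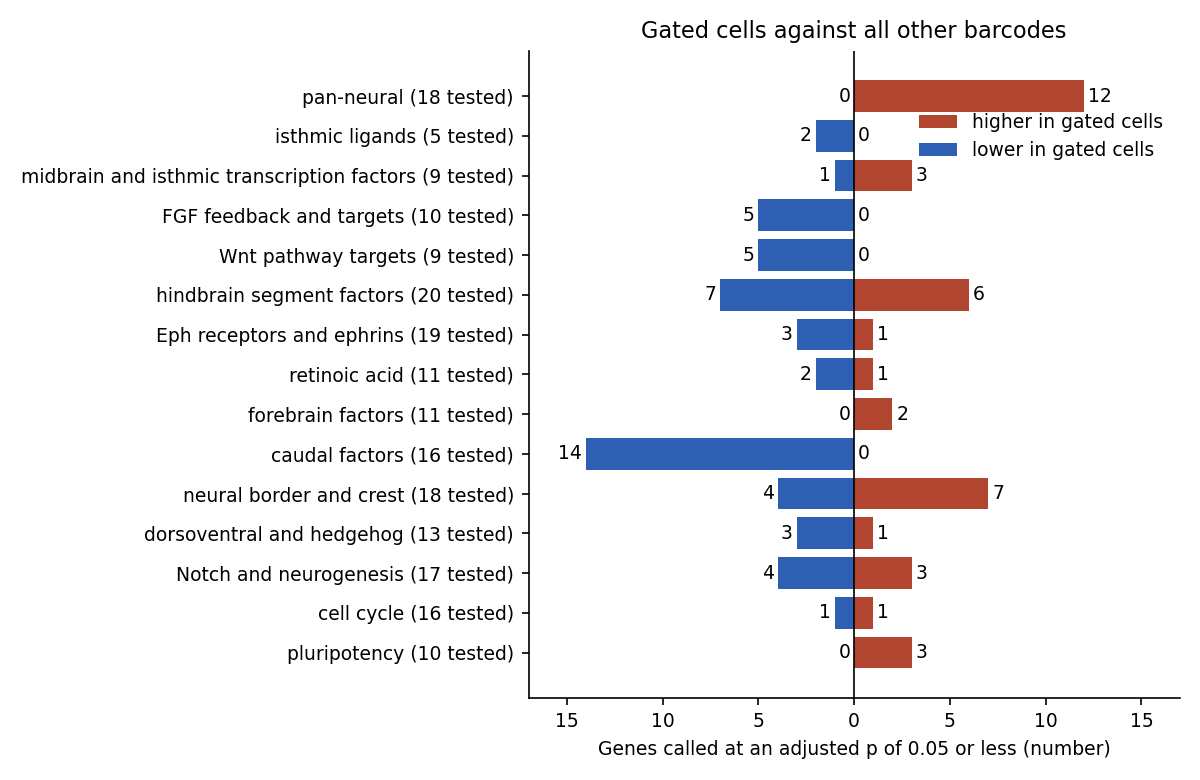
Genes of each list called higher (right) or lower (left) in gated cells than in all other barcodes (horizontal axis, number of genes at an adjusted p of 0.05 or less), with the number tested beside each list. Pan-neural genes lie on the right with 12 of 18, and caudal factors on the left with 14 of 16.

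Transcription factors of the midbrain and isthmus were called higher in 3 of 9 tested and lower in 1, and in 5 and 1 with the block. The higher ones were Lmx1b (1.51 ± 0.27), which is needed for the isthmic organizer, Dmbx1 (1.63 ± 0.29), a homeobox gene of the midbrain, and Pax5 (2.51 ± 0.46), the partner of Pax2 at the isthmus. Pax5 was sparse, at 0.846, 1.23 and 1.28 CPM against 0.227, 0.226 and 0.1301 CPM, with a UMI in 16 of the 710 cells. The last of these values lay under the filter on low counts, so Pax5 was tested only with the help of its level in gated cells. Its call and that of Dmbx1 were lost without replicate 2 or 3, and that of Lmx1b without replicate 3. Lmx1b had a UMI in 15.4% of them and 26.5% of the forebrain gate, and Dmbx1 in 5.21 and 8.26%. Sp5 (-1.41 ± 0.21), a Wnt target, was lower. Otx2 was at 62.6, 42.5 and 51.4 CPM against 51.4, 27.7 and 39.7 CPM, with overlap. Its log2 fold change of 0.43 ± 0.21 was not called (adjusted p = 0.267) except with the embryo as a block (adjusted p = 0.000841). En2 had 2 UMIs in all gated cells.

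Signals of the isthmic organizer were not raised as a group, with 2 of 5 lower and 3 not called, and 1 higher and 4 lower with the embryo as a block. Fgf8 was at 13.02, 15.3 and 12.6 CPM in gated cells and at 35.2, 33.2 and 33.1 CPM in all others, which include the streak and caudal epiblast, where Fgf8 is known to be active. The embryos did not overlap, and the log2 fold change was -1.299 ± 0.11 (adjusted p = 0.000729, called with any embryo left out). Fgf17 (-3.29 ± 0.40) was lower too, at 0.659 against 6.15 CPM, though not called without replicate 2. Wnt1 was present at 0.676, 2.22 and 0.213 CPM against 0.137, 0.374 and 0.0682 CPM, in 10 gated cells, and was called only with the embryo as a block (adjusted p = 0.173 without and 0.005798 with it). Of 10 FGF feedback genes and targets 5 were lower, among them Etv4 (-1.69 ± 0.18) and Etv5 (-0.80 ± 0.14), transcription factors switched on by FGF, and the inhibitor Spry4 (-1.42 ± 0.20). Of 9 Wnt targets 5 were lower, Lef1 (-1.05 ± 0.13), a transcription factor of the pathway, Nkd1 (-0.77 ± 0.14), Dkk1 (-0.79 ± 0.17), Notum (-0.84 ± 0.21) and Sp5. Lef1, Etv4 and Fgf8 were the members of these 3 lists called with any embryo left out.

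Hindbrain segment factors split. Of 20 tested, 6 were higher and 7 lower, and 7 and 9 with the embryo as a block. The Iroquois homeobox genes Irx1, Irx2, Irx3 and Irx5, which pattern the midbrain and anterior hindbrain, were among the higher ones. Irx3 was at 168, 143 and 160.1 CPM against 61.4, 41.4 and 57.6 CPM, with no overlap (1.58 ± 0.14, adjusted p = 0.00104). Irx5 (1.46 ± 0.16), Irx2 (1.399 ± 0.21) and Irx1 (0.54 ± 0.12) were higher too. Irx3 and Irx5 were called with any embryo left out, Irx2 was lost without replicate 2, and Irx1 without replicate 2 or 3. Meis2, a Hox cofactor, was at 342, 295 and 303 CPM against 213, 135 and 186 CPM (0.84 ± 0.14), not called without replicate 3. Hoxb1, the gene of rhombomere 4, was lower (32.03 ± 2.28 against 69.4 ± 22.01 CPM, log2 fold change -1.096 ± 0.20; not called without replicate 3). Hoxb3 (-1.91 ± 0.23), Hoxa3 (-1.22 ± 0.22), Fst (-1.18 ± 0.17), Hoxb2 (-0.78 ± 0.13), Meis1 (-0.65 ± 0.16) and Zfp503 (-0.55 ± 0.12) were lower as well, of which only Hoxb3 was called with any embryo left out. When the gate was applied to cells thinned to 5000 UMIs, the calls of Hoxb1 (-0.26, adjusted p = 0.599), Hoxb2 (-0.42), Hoxb3 (-0.15), Zfp503 (-0.35), Irx1 (0.40) and Irx2 (1.32) were lost, and Hoxa3 turned to 0.024. Several of these Hox genes are also active in mesoderm and caudal epiblast, which belong to the other barcodes.

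Caudal factors were mostly lower. Of 16 genes 14 were called lower and 2 were not called, with a median log2 fold change of -2.51. With the block 15 were lower and 1, Sall4 (0.23 ± 0.13 without it), was higher. Cdx4 was at 4.395 ± 1.395 against 40.7 ± 9.09 CPM (-3.22 ± 0.25), Cdx2 at 36.1 ± 8.88 against 111 ± 9.04 CPM (-1.61 ± 0.16) and Cdx1 at 62.1 ± 11.3 against 148 ± 36.7 CPM (-1.24 ± 0.18). Cdx1 was not called without replicate 3. When the gate was applied to cells thinned to 5000 UMIs, the log2 fold change of Cdx1 turned to 0.11 (adjusted p = 0.811), and Cdx2 (-0.31) was not called. Among 11 genes of the retinoic acid pathway, Aldh1a2, the enzyme that makes retinoic acid in mesoderm, was lower (12.6 against 115 CPM, -3.17 ± 0.26), as was the carrier Crabp1 (-0.97 ± 0.14). Cyp26a1 was higher by 0.37 ± 0.092 (adjusted p = 0.0471), a call lost with any embryo left out.

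Neural border and crest genes were called higher in 7 of 18 tested and lower in 4, and in 9 and 6 with the block. Without the block the higher ones were Dlx5 (1.15 ± 0.13), Dlx6, Tfap2a, Tfap2c, Pax7 (1.84 ± 0.33), Msx3 (2.598 ± 0.34) and Sox9 (1.12 ± 0.17). The lower ones were Msx1, Snai1, Gata2 and Ets1, of which Snai1 and Ets1 are also genes of mesoderm and endothelium. Olig3, a dorsal hindbrain factor, was at 15.6, 10.4 and 9.38 CPM against 2.93, 1.69 and 1.69 CPM without overlap (2.52 ± 0.29, adjusted p = 0.002604), called with any embryo left out. Of the 13 genes tested in that dorsoventral list, 3 were lower, namely Shh, the signal of floor plate and notochord (0.153 against 5.45 CPM), its receptor Ptch1 (-0.80 ± 0.15) and Foxa1. Shh in gated cells lay under the 0.205 CPM that 3 UMIs over all of them give. It passed the filter on low counts only through the other barcodes, so its direction was fixed and it is a description. Among 17 Notch and neurogenesis genes Hes3 (1.31 ± 0.23), an isthmic repressor of differentiation, and the neuronal genes Elavl3 (1.396 ± 0.32) and Tubb3 (1.07 ± 0.13) were higher, and the ligands Dll1 and Dll3, the receptor Notch1 and the target Hey1 were lower. Of 19 Eph receptors and ephrins Efna5 (0.70 ± 0.15) was called higher, and Efna1, Efna3 and Epha5 were lower. With the block 2 of this list were higher and 6 lower. Of 11 forebrain factors tested, Sfrp1 (0.96 ± 0.14) and Nr2f1 (1.400 ± 0.28) were higher, and with the block 5 were. Rax and Fezf1 had no UMI in gated cells and passed the filter on low counts only through the other barcodes, so that they had to be lower and are left out of the count.

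Genes of the pluripotent epiblast were called higher in 3 of 10 tested, and with the block in 6. Dppa4 had no UMI in gated cells and so had to be lower. Nanog (15.04 ± 2.65 against 3.45 ± 1.51 CPM, 2.15 ± 0.33), Dnmt3b (0.82 ± 0.20) and Lin28b (0.41 ± 0.085) were the higher ones. Nanog was not called without replicate 3, and the other pair not without replicate 2 or 3. Pou5f1 was at 224, 148 and 195 CPM against 165, 77.2 and 127 CPM, with overlap, and was called only with the embryo as a block (adjusted p = 0.153 without and 6.83e-06 with it). Of 16 cell cycle genes Ccne1 (0.29 ± 0.071), a G1/S cyclin, was higher and the inhibitor Cdkn1c (-0.94 ± 0.22) lower, and with the block 6 were higher and 3 lower. The Ccne1 call was lost with any embryo left out and that of Cdkn1c without replicate 2 or 3.

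Outside the lists, Rfx4 and Phox2a were among the 10 largest increases. Rfx4, a transcription factor of the neural tube, was at 21.99, 18.3 and 12.8 CPM against 3.904, 2.99 and 3.28 CPM (2.41 ± 0.20, adjusted p = 0.000757). Phox2a, a homeobox gene of hindbrain neurons and of the locus coeruleus, was at 14.4, 16.3 and 17.7 CPM against 3.48, 2.77 and 4.07 CPM (2.24 ± 0.18, adjusted p = 0.000729). Neither overlapped between classes, and both were called with any embryo left out. The others were 4921530L21Rik, Gm36356, Kcnh1, Fam181a, Fam135b, Iqsec3, Stum and Cabp7, with means from 0.348 to 5.52 CPM, of which Fam135b was not called with the block. 4921530L21Rik and Fam135b passed the filter on low counts only through the gated cells, so they had to be higher and are a description. None of these others was called in every fit with an embryo left out. Kcnh1, Fam135b and Iqsec3 were called in none, and 4921530L21Rik had no value in these fits. The 10 largest decreases were genes with no UMI in gated cells. Such genes numbered 195 of those tested, passed the filter on low counts only through the other barcodes and so had to be lower. They are given as a description. Against a floor of 3 UMIs over all gated cells, Dnajb13 was at least 9.202-fold lower, S1pr5 at least 8.04-fold and Ccdc152, the last of the 10, at least 3.21-fold. Among these genes Dnajb13, Cfap44, Meig1, Nme9 and Ak7 are known from motile cilia or flagella, and 1700028P14Rik, Gm16702 and Sowahd made up the rest.

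Markers of other cell types were counted as a check on what the gate let in. Surface ectoderm markers were mixed, with Wnt6, Dlx5, Tfap2a and Epcam higher and Krt8 lower among 8, none at 0, and a summed level of 565, 775 and 749 CPM against 867, 995 and 918 CPM. Wnt6 was at 1.04 ± 0.16, and at -0.94 when the gate was applied after thinning to 5000 UMIs (adjusted p = 0.112), and its call was lost without replicate 2. Their most abundant gene in gated cells was Epcam, at 229, 219.6 and 219 CPM against 157, 139 and 147 CPM. Extraembryonic endoderm markers summed to 138, 720 and 766 CPM in gated cells against 1537, 4472 and 3103 CPM, led by Spink1 at 133 CPM, with none of the 8 at 0. Erythroid markers summed to 1.01, 52.9 and 55.4 CPM, led by Hbb-bh1 at 17.8 CPM, and were lowest in replicate 1 in both classes. Of the 4 node and notochord markers outside the rule, Noto was at 0 and the sum was 1.36 CPM against 16.01 CPM. Presomitic and somitic markers summed to 42.2 CPM against 216 CPM, led by Rspo3 at 16.99 CPM, with all 6 called lower. Head and cardiac mesoderm markers summed to 122 CPM against 274 CPM, led by Myl7 at 37.5 CPM, with 6 of 8 lower. The calls were 2 of 3 lower for intermediate mesoderm, 3 of 4 for definitive endoderm, 3 of 8 for extraembryonic endoderm, 3 of 5 for endothelium and 3 of 7 for allantois and mesenchyme. With the block 2, 4, 8, 5 and 6 were lower in the same order, as were all 8 head and cardiac markers. None of 7 erythroid and 3 germ cell markers was called by edgeR, and all 7 erythroid markers were lower with the block. Gated cells among the top 6% of doublet scores made up 0.943, 6.75 and 8.13% in replicates 1, 2 and 3. The part these markers and scores play in the other results was not tested.

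**Figure D3:**
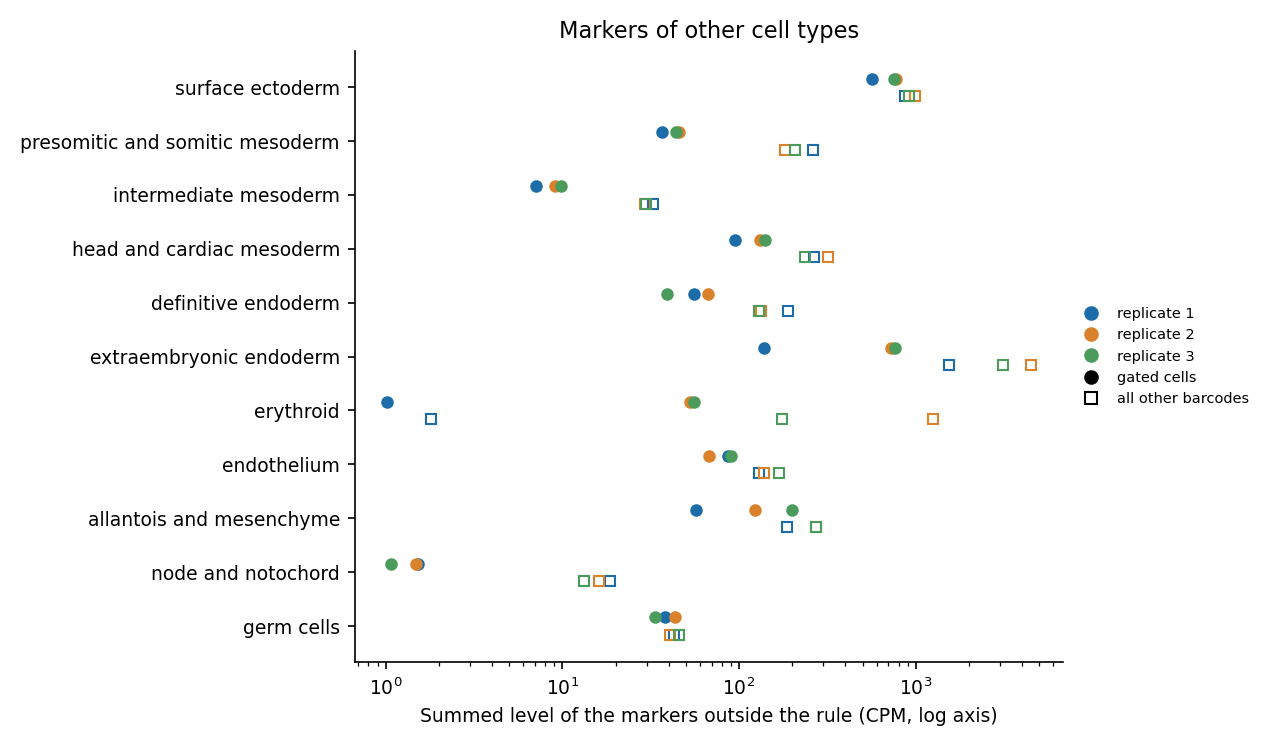
Summed level of the markers of each other cell type outside the rule (log axis, CPM) in each embryo, for gated cells and for all other barcodes. Gated cells lie lower for the mesoderm, endoderm, blood and node lists, and erythroid markers are at 1.01 CPM in the gated cells of replicate 1.

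Gated cells were then compared with the nearest class on the anterior side, the 956 forebrain-gate barcodes (314, 308 and 334), which carried no condition on the 4 gate genes. The rule's lack of Six3 and Hesx1 sets this comparison, so the forebrain genes that accompany them are not independent of it. Gated cells had more Hoxb1, Hoxb2, Cdx1, Cdx2 and Meis2 RNA and less Fezf2, Lhx5 and Sfrp1 RNA. edgeR called 134 of 11313 genes (1.18%), 77 higher (0.681%) and 57 lower (0.504%). With the embryo as a block it called 537 (4.75%), 270 higher (2.39%) and 267 lower (2.36%). Without replicate 1, 2 or 3 it called 43, 26 or 24 genes, and 33 genes when Gbx2 was taken out of the gate. Of 48 called list and top genes with a value in that last setting, 16 stayed the same and 32 were weaker. In total 16 genes were called with any embryo left out.

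Of 19 hindbrain segment factors tested, 7 were called higher and 12 were not called, and with the block 14 were higher. The median of the list was 1.04, against -0.0021 over all genes. Meis2 was at 342, 295 and 303 CPM against 131, 109.7 and 134 CPM, without overlap, as for 11.8% of all genes in this comparison (1.32 ± 0.093, adjusted p = 0.000106). Zfp703, a zinc finger gene, was at 45.5, 49.6 and 40.5 CPM against 7.93, 14.5 and 13.5 CPM (1.93 ± 0.20, adjusted p = 0.001102), again without overlap, and at 1.02 with Gbx2 out of the gate, where it was not called. Zfp503 (1.75 ± 0.18), Fst (1.73 ± 0.19), Hoxb1 (1.46 ± 0.21) and Hoxb2 (1.04 ± 0.17) were among the others. Meis2 and Zfp703 were called with any embryo left out. Hoxb1 was not called without replicate 1 or 2, nor with Gbx2 out of the gate (0.66). Cdx1 (2.03 ± 0.19) and Cdx2 (1.45 ± 0.20) were higher among 12 caudal factors. Olig3 (2.83 ± 0.32), Hes3 (2.205 ± 0.29), the Eph receptor Epha4 (0.97 ± 0.095) of rhombomeres 3 and 5, and 3 of 7 Wnt targets, Axin2 (1.01 ± 0.11), Nkd1 (0.82 ± 0.17) and Notum (1.96 ± 0.36), were higher as well. Of 15 pan-neural genes tested 3 were higher, Fabp7 (1.26 ± 0.21), Ptn (0.87 ± 0.15) and Sox3 (0.99 ± 0.17), and 7 higher and 2 lower with the block. Pou3f1 was lower, at 103, 94.1 and 89.3 CPM against 165, 168 and 142 CPM (-0.74 ± 0.088, adjusted p = 0.00265), with a UMI in 66.8% of gated cells and 83.2% of the forebrain gate, and its call was lost without replicate 2 and with Gbx2 out of the gate (-0.53).

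Of 9 forebrain factors tested, Fezf2 (-3.25 ± 0.56), Lhx5 (-1.97 ± 0.24) and Sfrp1 (-0.55 ± 0.099), the last an inhibitor of Wnt signals, were called lower. Fezf1 and Rax had no UMI in gated cells, passed the filter only through the forebrain gate and so had to be lower. As a description, Fezf1 was at least 22.2-fold lower against the floor of 3 UMIs, from 3.22, 6.23 and 4.22 CPM in the forebrain gate. Of 7 midbrain and isthmic factors tested none was higher and 1, Otx2, was lower, with a median of -0.72, and with the block 1 was higher and 3 were lower, among them Lmx1b (-0.73 ± 0.23, adjusted p = 0.298 without and 0.00295 with it). Otx2 was at 62.6, 42.5 and 51.4 CPM in gated cells and at 241, 159 and 184 CPM in the forebrain gate, without overlap. Its log2 fold change was -1.899 ± 0.16 (adjusted p = 0.000449), called with any embryo left out. The epiblast genes Fgf5 (-2.12 ± 0.21) and Utf1 (-1.54 ± 0.14), Dlx5 (-0.99 ± 0.17) and Dlx6 (-1.32 ± 0.21) of the anterior border, Epha7 (-2.304 ± 0.20) and Cyp26a1 (-0.71 ± 0.13) were also lower. The calls of Cyp26a1, Dlx5 and Dlx6 were lost with any embryo left out, and Cyp26a1 was at -0.10 with Gbx2 out of the gate. Outside the lists, Wnt8a, a Wnt ligand, had the largest increase (38.2, 39.02 and 26.02 against 4.48, 5.89 and 4.4997 CPM, 2.801 ± 0.20), followed by Ppl, Hotairm1, Tshz1 and Fgfbp3. The largest decreases were Ermn, Foxd4, Fzd5, Irs4 and Shisa2 (14.02 against 82.7 CPM). Ermn, at a mean of 0.0823 CPM in gated cells, lay under the floor of 0.205 CPM. It passed the filter only through the forebrain gate (6.43, 18.7 and 3.09 CPM), so it had to be lower and is a description. Its call was lost with any embryo left out. Hotairm1 and Fgfbp3 were called in only 1 of these fits, and Tshz1 in 2. Markers of other cell types moved in this comparison too. Of 7 surface ectoderm markers tested Wnt6 (1.73 ± 0.31) was higher and Dlx5 lower, and with the block 1 was higher and 5 were lower, with sums of 565, 775 and 749 CPM against 667, 857 and 863 CPM. The definitive endoderm gene Apela (1.04 ± 0.15) was higher, in a list that summed to 53.8 CPM against 27.2 CPM, and Ifitm3 (-0.77 ± 0.10), a germ cell marker, was lower. No gene of the mesoderm, extraembryonic endoderm, erythroid, endothelial and allantois lists was called by edgeR, and with the block 6 were lower. The part of these markers was not tested.

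On the posterior side the gated cells were compared with the 969 caudal-gate barcodes (338, 312 and 319), which hold Nkx1-2 by definition. The rule's lack of Nkx1-2 sets this comparison, so the caudal genes that accompany it are not independent of it. Here gated cells had more Otx2, Irx1, Irx3 and Irx5 RNA and less Cdx1, Cdx2, Hoxb1 and Hoxb2 RNA. edgeR called 95 of 11114 genes (0.855%), 30 higher (0.27%) and 65 lower (0.585%). With the embryo as a block it called 547 (4.92%), 247 higher (2.22%) and 300 lower (2.7%). Without replicate 1, 2 or 3 it called 59, 22 or 4 genes, and 3 with any embryo left out, and 213 genes (80 higher and 133 lower) when Gbx2 was taken out of the gate.

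Otx2 was at 62.6, 42.5 and 51.4 CPM against 16.9, 12.1 and 22.005 CPM, with no overlap, as for 11.7% of genes in this comparison. Its log2 fold change was 1.62 ± 0.20 (adjusted p = 0.00399), not called without replicate 3. Irx1 (1.38 ± 0.14), Irx5 (1.25 ± 0.14), Irx3 (1.13 ± 0.15), Lmx1b (1.503 ± 0.23), Cyp26a1 (1.32 ± 0.15), Sox9 (1.24 ± 0.15), Tcf7l1 (0.93 ± 0.18) and Pou3f1 (0.72 ± 0.087) were higher. Without replicate 3 edgeR called 0 genes higher, so all of these calls were lost there too. Pou3f1 was the 1 gene called of 15 pan-neural genes, and with the block 6 were higher and 3 lower. Of 13 caudal factors tested, 3 were called lower and 10 were not called, and with the block 12 were lower. Cdx1 was at 56.3, 75.1 and 54.8 CPM against 317, 386 and 301 CPM, without overlap (-2.43 ± 0.14, adjusted p = 3.24e-05). Cdx2 (-2.42 ± 0.19) and Wnt5b (-1.83 ± 0.26) were the others. Cdx1, Cdx2 and Hoxb1 were the 3 genes called with any embryo left out. Of 19 hindbrain segment factors 3 were higher, Irx1, Irx3 and Irx5, and 6 lower, while Irx2 was not called (0.41 ± 0.26). Among the lower ones were Hoxb1 (-1.33 ± 0.12), Hoxb2 (-0.96 ± 0.17), Zfp703 (-1.16 ± 0.098), Zfp503 (-0.59 ± 0.11) and Fst (-1.25 ± 0.17). Of 7 Wnt targets 5 were lower (Notum, Sp5, Lef1, Axin2 and Tcf7), and of 9 FGF feedback genes and targets 2, Etv4 (-2.14 ± 0.28) and Spry4. With the block 3 hindbrain segment factors were higher and 10 lower, and 6 Wnt targets and 5 FGF feedback genes and targets were lower. Outside the lists Hopx, Fzd8, Rfx4, Map1a and Fzd7 had the largest increases and Nt5e, Pcdh11x, Hoxb4, Fgfbp3 and Mcc the largest decreases. All of these increases were lost with any embryo left out, and Pcdh11x and Hoxb4 were called in only 1 of these fits. Hopx passed the filter on low counts only through the gated cells, and Pcdh11x only through the caudal gate. Their direction was fixed, so they are a description. Nt5e was at 0, 0.494 and 0.213 CPM in gated cells, near the floor of 0.205 CPM, against a mean of 4.21 CPM. It passed the filter on low counts through the caudal gate and is given as a description, and its call was lost with any embryo left out. Hoxb4, a Hox gene of the caudal hindbrain, stood at 6.83 against 36.1 CPM. Of 8 extraembryonic endoderm markers none was called by edgeR and 7 were higher in gated cells with the block, with sums of 138, 720 and 766 CPM against 80.5, 471 and 542 CPM. Of 8 surface ectoderm markers none was called and 5 were higher with the block, with sums of 565, 775 and 749 CPM against 535, 585 and 559 CPM, as were 2 of 3 endothelial markers. The definitive endoderm gene Apela (-1.14 ± 0.11) was lower, in a list that summed to 53.8 CPM against 94.65 CPM. The part of these markers in the result was not tested.

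The gated cells were not uniform along this axis. They were split by the gate genes into 222 cells with En1 or Pax2 only (53, 85 and 84 in replicates 1, 2 and 3), 399 with Gbx2 or Egr2 only (125, 141 and 133) and 89 with genes of both sides (34, 26 and 29). The 4 gate genes made this split and were not tested. Between the single-sided subsets edgeR called 63 of 9065 genes (0.695%), 37 higher in the Gbx2 and Egr2 subset (0.408%) and 26 higher in the En1 and Pax2 subset (0.287%). With the embryo as a block it called 187 (2.06%), 84 and 103 in the same order (0.927 and 1.14%). Without replicate 1, 2 or 3 it called 43, 14 or 26, and 12 genes with any embryo left out. Fold changes are given as the Gbx2 and Egr2 subset against the En1 and Pax2 subset.

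Otx2 was much more abundant in the En1 and Pax2 subset. It was at 136, 89.96 and 102 CPM there and at 23.9, 12.3 and 17.995 CPM in the Gbx2 and Egr2 subset, without overlap, as for 11.3% of genes in this comparison. The log2 fold change was -2.57 ± 0.21 (adjusted p = 2.93e-05). Otx2 had a UMI in 69.8% of the En1 and Pax2 cells, 48.3% of cells with genes of both sides and 17.3% of the Gbx2 and Egr2 cells, against 2.59% of endoderm-rich barcodes. After thinning to 5000 UMIs the first 3 shares were 36.04, 19.1 and 7.02%. Cyp26a1 was at 75.6, 68.02 and 58.2 CPM in the En1 and Pax2 subset and at 18.9, 12.7 and 16.8 CPM in the other (-2.04 ± 0.17, adjusted p = 2.93e-05), again without overlap. Sox9 (-1.86 ± 0.20), Lhx5 (-2.07 ± 0.42), Sox21 (-1.36 ± 0.27), Tubb3 (-0.99 ± 0.15), Irx1 (-0.96 ± 0.18), Irx5 (-0.86 ± 0.15) and Irx3 (-0.66 ± 0.12) were also more abundant on this side. Dmbx1 (8.94 against 0.473 CPM) passed the filter on low counts only through the En1 and Pax2 subset. It had to be higher there and is a description. Of the 5 midbrain and isthmic factors tested, Otx2 and Dmbx1 were the called ones, Dmbx1 with its direction fixed. All 10 cells of the gate with a Wnt1 UMI held En1 or Pax2, 9 in the En1 and Pax2 subset and 1 with genes of both sides.

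On the Gbx2 and Egr2 side, 7 of 14 hindbrain segment factors tested were higher, and 3, Irx1, Irx3 and Irx5, were lower. The median of the list was 0.85, against -0.0077 over all genes. Hoxb1 was at 40.7, 47.3 and 44.4 CPM against 14.1, 16.8 and 11.9 CPM (1.61 ± 0.17, adjusted p = 0.000364) and Zfp703 at 61.8, 76.4 and 59.2 CPM against 13.5, 11.7 and 12.6 CPM (2.36 ± 0.17, adjusted p = 2.29e-05), both without overlap. Zfp503 (1.85 ± 0.27), Fst (1.44 ± 0.24), Hoxb2 (1.303 ± 0.20) and Meis2 (0.94 ± 0.086) were higher too. Genes of the retinoic acid pathway were higher here in 3 of 7 tested, among them the receptor Rarb (2.98 ± 0.51) and the retinoic acid carrier Crabp1 (1.05 ± 0.19). Cdx1 (2.51 ± 0.20), Cdx2 (1.84 ± 0.27), Olig3 (2.696 ± 0.45), Epha4 (1.06 ± 0.11) and the cyclin Ccnd2 (0.65 ± 0.11) were higher as well. Fgf8 was at 13.03, 19.1 and 15.6 CPM against 15.98, 8.05 and 7.94 CPM, with overlap, and was not called. Outside the lists Hotairm1, a non-coding gene (125 against 21.2 CPM), Fgfbp3, Ppl, Tshz1 and Plppr1 had the largest increases, and Tdrd7, Lmo1, Shisa2, Fam181b and Socs2 the largest decreases. Fgfbp3, Ppl and Plppr1 passed the filter on low counts only through the Gbx2 and Egr2 subset, and Tdrd7 and Lmo1 only through the other. Their direction was fixed, so they are a description. Plppr1 was called in no fit with an embryo left out, and Fgfbp3, Tdrd7 and Fam181b in only 1. Otx2, Cyp26a1, Hoxb1, Meis2, Zfp703 and Cdx1 were called with any embryo left out. Cdx2, Epha4 and Sox9 were lost without replicate 2 alone. Fst, Hoxb2, Zfp503, Crabp1, Irx3 and Irx5 were lost without replicate 2 or 3, and Rarb without replicate 1 or 2. Dmbx1, Lhx5, Sox21, Tubb3, Irx1, Olig3 and Ccnd2 were lost with any embryo left out.

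**Figure D4:**
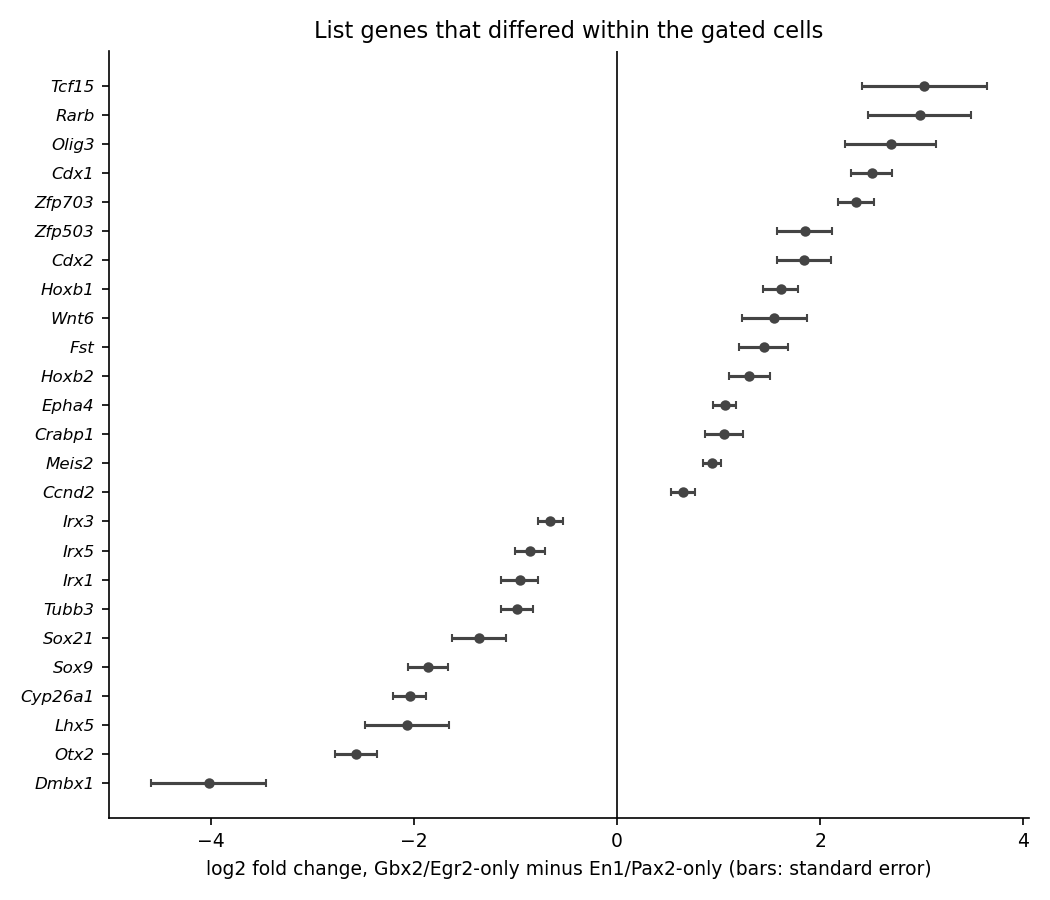
List genes reported here that were called between the subsets (vertical axis), with the log2 fold change of the Gbx2 and Egr2 subset minus the En1 and Pax2 subset (horizontal axis, points) and its standard error (bars). Otx2, at -2.57, and Dmbx1 lie on the left, and Cdx1, at 2.51, Rarb and Tcf15 on the right. Dmbx1 and Tcf15 passed the filter on low counts only through the subset where they are higher, so their direction was fixed.

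Depth and other cell types were compared between the same subsets. Median UMIs were 26149, 14087 and 14233.5 in the En1 and Pax2 subset and 24362, 14031 and 15135 in the other. Cells with genes of both sides had 27955.5, 16126 and 21643, and 0, 3.85 and 13.8% of them were among the top 6% of doublet scores, against 0, 5.88 and 8.33% in the En1 and Pax2 subset and 1.6, 7.8 and 6.77% in the Gbx2 and Egr2 subset. Extraembryonic endoderm markers summed to 281, 1401 and 1066 CPM in the En1 and Pax2 subset and to 94.97, 417 and 758 CPM in the Gbx2 and Egr2 subset, with none of the 8 genes at 0 in either. None of them was called by edgeR without the block and 6 were lower in the Gbx2 and Egr2 subset with it. The most abundant, Spink1, was at 94.8 against 238 CPM (adjusted p = 0.0759 without and 5.75e-08 with the block). Tcf15, a somite gene, was higher in the Gbx2 and Egr2 subset (13.5 against 1.61 CPM, adjusted p = 0.0442), as was the surface ectoderm gene Wnt6 (37.4 against 12.9 CPM, adjusted p = 0.0493), and both calls were lost with any embryo left out. Tcf15 passed the filter on low counts only through the Gbx2 and Egr2 subset, so it had to be higher there. The part of these other cells in the differences was not tested.

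The levels across neighbouring classes followed an order for several genes. From the forebrain gate through the En1 and Pax2 subset, the cells with genes of both sides and the Gbx2 and Egr2 subset to the caudal gate, Otx2 had means of 195, 109, 58.1, 18.1 and 17.02 CPM. The last pair overlapped between embryos and the earlier neighbours did not. Cdx1 and Hoxb1 ran the other way. Cdx1 stood at 15.2, 15.8, 51.01, 92.3 and 335 CPM and Hoxb1 at 11.5, 14.3, 25.5, 44.1 and 80.4 CPM, both with overlap between the first pair alone. Irx3 was highest in the middle, with 129.7, 197, 192, 125 and 71.6 CPM in the same order, and its En1 and Pax2 subset overlapped the cells with genes of both sides. Meis2 had its highest mean in the Gbx2 and Egr2 subset, with 125, 198, 303, 381 and 275 CPM and no overlap between neighbours. Fgf8 was at 8.29, 10.7, 12.98, 15.9 and 20.9 CPM, and every pair of neighbours overlapped. The cells with genes of both sides, which had the highest median depth of the 3 subsets in each embryo, were not tested. All of these sums come from the same embryos, and no trend test was made.

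**Figure D5:**
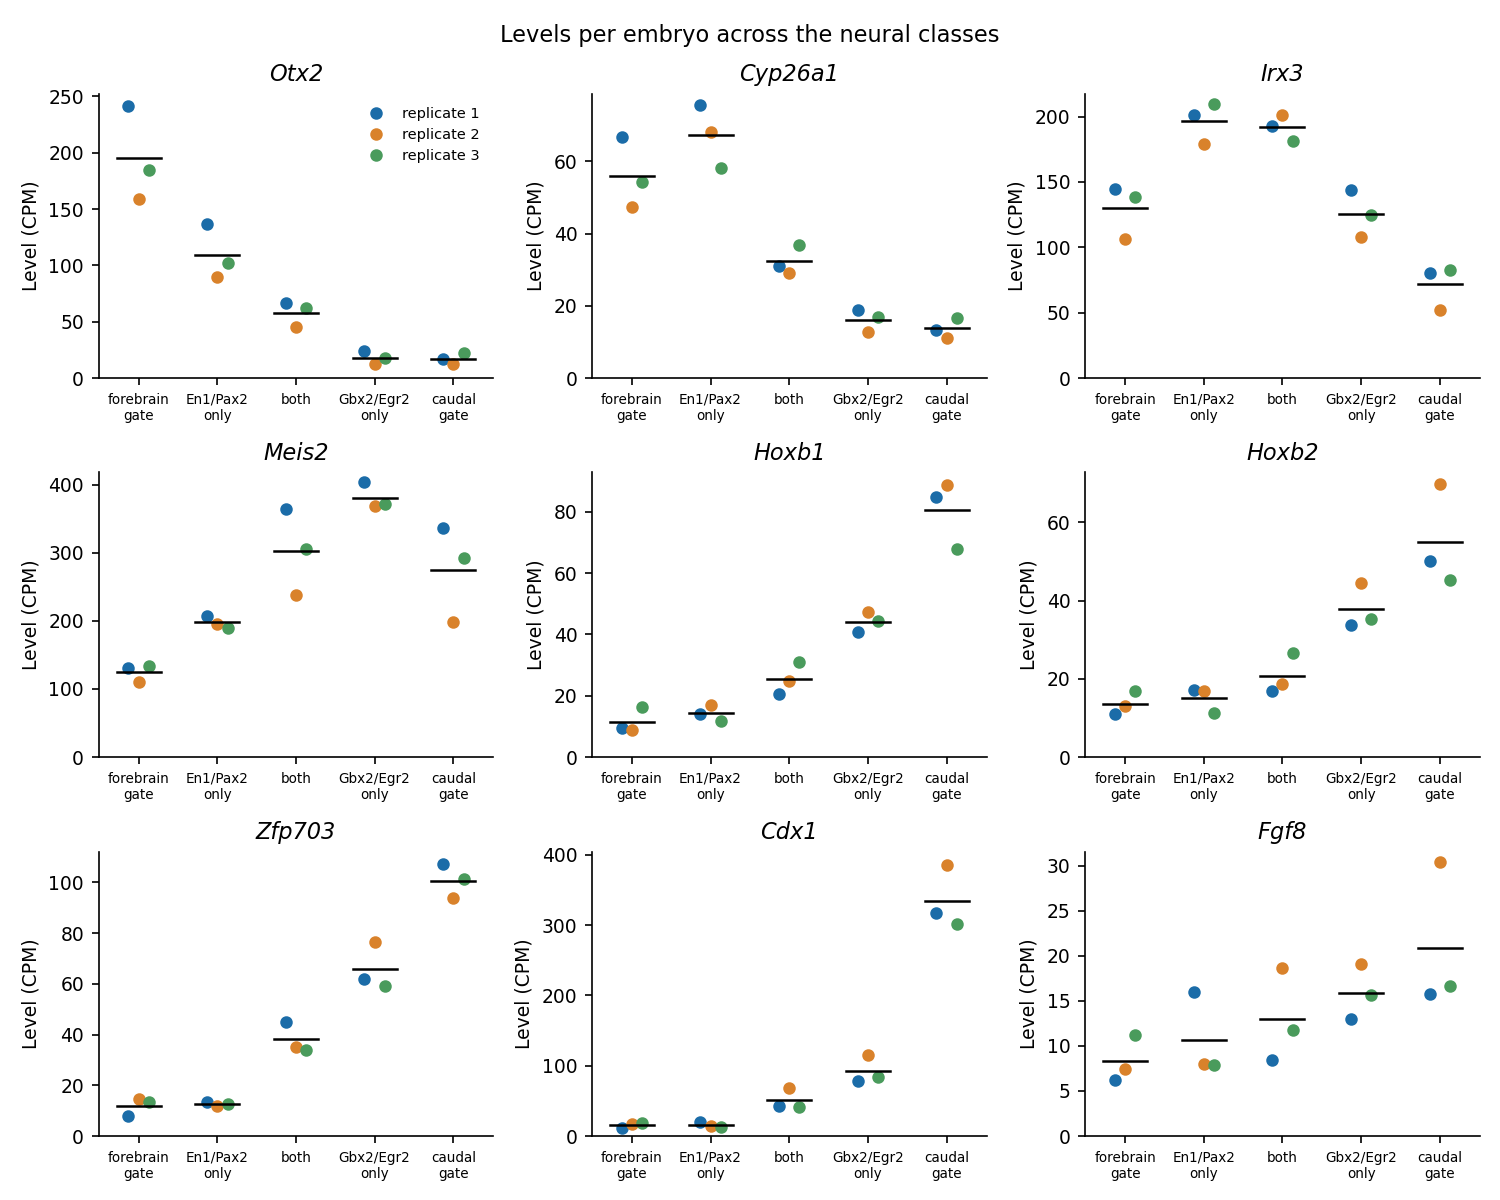
Level of 9 genes (vertical axes, CPM) in each embryo (points, with the mean) across 5 classes of Sox2-positive cells (horizontal axes). Otx2 and Cyp26a1 are low from the Gbx2 and Egr2 subset on, Hoxb1, Hoxb2, Zfp703 and Cdx1 are highest in the caudal gate, Irx3 is highest in the middle, and Fgf8 overlaps between neighbouring classes.

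The bases before the start sites of Otx2, Cyp26a1 and Hoxb1 are shown, since these genes of the 2 ends of the order and of retinoic acid breakdown differed between the subsets. They are from RefSeq on GRCm38.p6, 250 bases before the start, read 5′ to 3′ on the gene's strand. Capitals mark matches, on either strand, to TAATTA (a core bound by many homeodomain proteins), TAATCC (bound by Otx proteins), TGATNNAT (bound by Pbx and Hox proteins together) and AGNTCA (a half-site of nuclear receptors, among them those for retinoic acid). In windows of this length 4.84% of 32851 RefSeq start sites held TAATTA, 6.25% TAATCC, 7.68% TGATNNAT and 41.3% AGNTCA. The Otx2 window lies at chr14:48667645-48667894, minus strand, before the most upstream of 4 starts in the RefSeq table used. It lies inside the gene as GENCODE annotates it, 48657677 to 48673819, where the gene starts further upstream. The Cyp26a1 window lies at chr19:37697558-37697807 and that of Hoxb1 at chr11:96365508-96365757, both on the plus strand.
Otx2: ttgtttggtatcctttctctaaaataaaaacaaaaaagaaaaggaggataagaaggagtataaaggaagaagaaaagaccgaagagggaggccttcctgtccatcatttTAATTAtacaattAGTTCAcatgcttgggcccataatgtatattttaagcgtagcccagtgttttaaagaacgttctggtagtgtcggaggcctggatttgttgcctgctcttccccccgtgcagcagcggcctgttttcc
Cyp26a1: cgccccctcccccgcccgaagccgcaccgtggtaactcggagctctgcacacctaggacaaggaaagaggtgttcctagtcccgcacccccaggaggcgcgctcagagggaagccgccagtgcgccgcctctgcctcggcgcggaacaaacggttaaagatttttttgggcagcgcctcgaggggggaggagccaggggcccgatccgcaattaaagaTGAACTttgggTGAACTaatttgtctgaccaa
Hoxb1: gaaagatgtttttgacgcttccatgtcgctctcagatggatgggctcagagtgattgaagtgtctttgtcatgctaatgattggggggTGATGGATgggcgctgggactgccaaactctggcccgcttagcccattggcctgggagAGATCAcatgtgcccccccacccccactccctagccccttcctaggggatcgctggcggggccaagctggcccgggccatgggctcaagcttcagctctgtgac

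The Otx2 window held TAATTA starting 141 bases before the start and a single AGNTCA match. The Cyp26a1 window held a pair of AGNTCA matches 32 and 21 bases before the start, in the same orientation and 5 bases apart, the spacing of a classical retinoic acid response element. That arrangement was found in 0.198% of the start sites. The Hoxb1 window held TGATGGAT starting 162 bases before the start, a match to the Pbx and Hox motif, and 1 AGNTCA match. No window of the 3 held TAATCC. A match describes the letters and is not a measure of binding.

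Egr2-positive gated cells numbered 14, 12 and 6 in replicates 1, 2 and 3. As replicate 3 was under the minimum of 10 cells per sum, no test was made. Hoxb1 was at 26.9, 19.3 and 10.96 CPM in them (10, 5 and 1 UMIs), against 36.5, 45.8 and 42.4 CPM in Gbx2-positive cells without Egr2. Epha4, a known Egr2 target, was at 53.8, 92.5 and 87.6 CPM (20, 24 and 8 UMIs) against 122, 105 and 98.8 CPM. The values of Hoxb1 and Epha4 were lower in the Egr2-positive cells of each embryo, on few UMIs. Otx2 was at 32.3, 23.1 and 21.9 CPM (12, 6 and 2 UMIs) against 34.8, 17.8 and 27.5 CPM, with overlap.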

How the data were processed

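Single-cell libraries of 3 wild-type embryos were analysed. The authors aligned the reads with Cell Ranger (version 3.1.0, per the submitters' processing notes) to mm10 with EGFP added, and deposited raw counts of UMIs per feature and barcode, without normalization. Barcodes with 1500 to 8500 genes (7500 in replicate 2) and at most 10% mitochondrial UMIs were kept, giving 195477519, 145760007 and 166042809 UMIs. UMIs were summed per embryo and class and tested by edgeR's quasi-likelihood fit (4.0.16 under R 4.3.3, TMM scaling, filterByExpr), with Benjamini-Hochberg adjustment over all genes tested at 0.05. The 12 rule genes stayed in the fits but out of all counts.

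Each embryo gave both sums of a comparison. Over genes, which do not count as replicates, the deviations of its 2 sums from their class means correlated at 0.197 to 0.593, so embryos pair the sums. Alternatives were a fit blocked on the embryo, DESeq2 (version 1.42.0), no filter on low counts, each embryo left out, thinning to 5000 UMIs, leaving out the top 6% of Scrublet scores (scanpy version 1.11.5), a mitochondrial minimum of 0.5%, at least 2 UMIs of the 4 gate genes, and a gate without Gbx2. Scrublet's own threshold marked 1 barcode per library and was not used. In simulated counts for gated cells against all others, edgeR on 15861 genes recovered 58% of 50 genes changed 2-fold and 84% of 50 changed 4-fold, and 9.35% of its calls were false, above the 5% level used. The simulated sums were drawn independently, without the pairing by embryo, and the changed genes were taken above a minimum mean count. These rates therefore need not hold for the real, paired sums or for sparse genes. Named genes were those of the rule, of the lists, and the 10 (all other barcodes) or 5 (other comparisons) largest called changes each way with the same sign in every embryo. Some list members are counted but not reported here. The members and lists were chosen with earlier results of these data known. Start sites came from RefSeq (GRCm38.p6).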

Additional observations from a re-analysis of the deposited data

Results flagged for a closer look

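EGFP, which was added to the reference, was outside every comparison. It had 28 UMIs in replicate 1, 31 UMIs in replicate 3 and 0 in replicate 2, over all barcodes that passed quality control, against a floor of 3 UMIs that a count of 0 allows. None of these UMIs was in a gated cell. The embryos are labelled wild type, there is no control library, and the source of these UMIs was not tested.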

How the results depend on the processing

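In each of the 4 comparisons the number of calls moved by over 1.5 times with the embryo as a block and without replicate 2 or 3. Of the list and top genes called, all but 3 kept their sign in every alternative that gave a value. With the embryo as a block, the counts of genes higher and lower were 1380 and 2262 (all other barcodes), 270 and 267 (forebrain gate), 247 and 300 (caudal gate) and 84 and 103 (between subsets); of the genes called without the block, 1152, 134, 95 and 63 were called in both fits. Leaving out 1 embryo gave 48 to 307 higher and 109 to 669 lower against all others, 13 to 24 and 11 to 19 against the forebrain gate, 0 to 19 and 4 to 40 against the caudal gate, and 8 to 21 and 6 to 22 between subsets. The 0 came from edgeR without replicate 3, where 603 genes had an unadjusted p under 0.05. With no filter on low counts the counts were 150 and 117 (forebrain gate), 80 and 164 (caudal gate) and 85 and 101 (subsets). DESeq2 called 762 genes higher against all others and 98 lower against the caudal gate. After thinning to 5000 UMIs, 224 were higher and 426 lower against all others, 42 lower against the caudal gate, and 21 and 9 called between subsets. Without Gbx2 in the gate the counts were 19 and 14 (forebrain gate) and 80 and 133 (caudal gate). Against all others, thinning turned Cdx1 to 0.11, Hoxa3 to 0.024 and Wnt6 to -0.94 on the log2 scale; the cause was not tested. The share of gated cells was 2.23% after thinning, 1.64% with at least 2 UMIs and 1.55% without Gbx2, and mean detection after thinning was 10.5% for Sox1, 17.7% for Otx2 and 37.5% for Pou3f1. The comparison of Egr2-positive cells, and so its alternatives, was not run, since 1 sum held 6 cells.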
